A study of Mus musculus with 2 samples.

Results

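The subunits of the phagocyte NADPH oxidase Cybb, Cyba, Ncf1, Ncf4 and Rac2 were described across the cells of 2 brain libraries, and they are 5 of the 32285 genes counted. They were taken by their gene symbols and not by a rule on their values, though earlier results of these data were known. Each library pooled the brains of 6 male mice aged 23 weeks, of littermates that were wild type at Disc1 (Disc1 WT/WT) or carried the locus impairment allele on both chromosomes (Disc1 LI/LI). Actinomycin D, a blocker of transcription, was present while both tissues were taken apart, and CD11b-positive cells with low CD45 were sorted for droplet sequencing of the 3′ ends of transcripts. With 1 library per genotype, a difference between genotypes has no replicate check, and it cannot be told apart from a difference between the 2 pools, sorts or droplet runs. No test was therefore made, and every interval is a 95% interval that covers counting error only.

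The phagocyte oxidase, often called NOX2, moves electrons from NADPH in the cytosol across a membrane onto oxygen and so makes superoxide. Its catalytic core sits in the membrane as a pair of proteins, gp91phox from Cybb and p22phox from Cyba, and p22phox also serves other oxidases of the family. In resting cells the organizer p47phox (Ncf1) and p40phox (Ncf4) wait in the cytosol, and they join the core together with a Rac GTPase when the cell is stimulated. Neutrophils use the enzyme in the oxidative burst against microbes, and microglia, the resident macrophages of the brain, are known to make superoxide with it as well.

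Values are given as CPM, a gene's share of the UMIs of a whole cell class, times 1000000, where each UMI stands for 1 captured transcript. Barcodes under 200 genes or over 10% mitochondrial UMIs were left out, which kept 7032 cells of Disc1 WT/WT and 7817 cells from the Disc1 LI/LI library. Microglia were cells with at least 0.5% of UMIs from P2ry12, Gpr34, Tmem119, Siglech, Fcrls and Olfml3 and under 1% from S100a8 and S100a9. Neutrophils had at least 3% of UMIs from S100a8 and S100a9, and they were split at 1% of UMIs from Ngp, Camp and Ltf, which encode proteins of the granules that maturing neutrophils fill. In the Disc1 LI/LI library, the progenitor genes Elane and Mpo stood at 3343 and 894 CPM in granule-low cells and at 1094 and 240 CPM in granule-high cells, though in a smaller share of the former (17.5% and 3.77%) than of the latter (34.0% and 10.4%), so the split is not read as an order of maturity. All remaining cells were other cells, and those with enough marker UMIs were named monocyte-like, border-macrophage-like, T- or NK-like and so on.

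Before the subunits are described, the libraries themselves stood apart. Microglia were 6180 cells (87.9%) of Disc1 WT/WT but 1950 cells (24.9%) of Disc1 LI/LI. Neutrophils were 66 granule-low and 50 granule-high cells in Disc1 WT/WT against 1991 and 1631 cells in Disc1 LI/LI, although both samples carry the label microglia. Disc1 itself had 597 UMIs (20.3 CPM) in Disc1 WT/WT microglia and 18 UMIs (2.20 CPM) in Disc1 LI/LI microglia. Median depth per cell was 4271 and 3787.5 UMIs in microglia, 2742.5 and 2765 in granule-low neutrophils, and 7155 and 7055 in granule-high neutrophils, Disc1 WT/WT first. As sums, markers that the class rules did not use followed the names of microglia and neutrophils. The 8 independent microglia markers summed to 52581 and 60178 CPM in microglia, and the 12 independent neutrophil markers to between 32824 and 51513 CPM in neutrophils against 151 and 479 CPM in microglia. Single markers did not all follow, since Csf3r had 143 and 123 CPM in microglia but 91.5 and 85.3 CPM in granule-high neutrophils, and Retnlg had a UMI in 1.94% and 49.3% of microglia. Microglia markers summed to 14340 and 8735 CPM in the granule-low and granule-high neutrophils of Disc1 WT/WT and to 3631 and 1771 CPM in those of Disc1 LI/LI, and the part of this RNA in the neutrophil values was not tested. The libraries shared 12 barcodes.

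In the mm10 annotation, Cybb (ENSMUSG00000015340) lies at chrX:9435252-9487771 on the minus strand, Cyba (ENSMUSG00000006519) at chr8:122424776-122432930 on the minus strand, and Ncf1 (ENSMUSG00000015950) at chr5:134220053-134229625 on the minus strand. Ncf4 (ENSMUSG00000071715) at chr15:78244801-78262580 on the plus strand and Rac2 (ENSMUSG00000033220) at chr15:78559167-78572783 on the minus strand share a chromosome. All are protein-coding genes. Cyba lies within the longer gene model Gm20388 of the opposite strand, which was not analysed here. Gtf2ird2 overlaps the 3′ end of Ncf1 on the opposite strand, and it had 9.09 and 8.69 CPM in microglia and at most 1.24 CPM in either neutrophil class, against Ncf1 values of 275 CPM or more.

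The 2 membrane subunits differed most in how their levels varied between classes, so their promoters are shown. RefSeq windows of 300 bases on GRCm38.p6, from 250 bases before to 50 after the start of the transcript, were at hand for 3 of the 5 genes, Cybb, Cyba and Ncf1. The windows are written 5′ to 3′ on the minus strand, and capitals mark GAGGAA, a core sequence bound by the myeloid factor PU.1, or its reverse complement TTCCTC. The Cybb window (chrX:9469275-9469574) and the Cyba window (chr8:122432891-122433190) read as follows, and the Cybb window lies inside the mm10 gene model, which extends further upstream.
Cybb: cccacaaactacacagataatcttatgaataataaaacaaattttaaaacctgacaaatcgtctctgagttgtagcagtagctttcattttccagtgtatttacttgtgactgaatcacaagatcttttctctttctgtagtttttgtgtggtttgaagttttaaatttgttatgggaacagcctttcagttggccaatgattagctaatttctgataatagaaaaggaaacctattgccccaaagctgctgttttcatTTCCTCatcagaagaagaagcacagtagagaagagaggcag
Cyba: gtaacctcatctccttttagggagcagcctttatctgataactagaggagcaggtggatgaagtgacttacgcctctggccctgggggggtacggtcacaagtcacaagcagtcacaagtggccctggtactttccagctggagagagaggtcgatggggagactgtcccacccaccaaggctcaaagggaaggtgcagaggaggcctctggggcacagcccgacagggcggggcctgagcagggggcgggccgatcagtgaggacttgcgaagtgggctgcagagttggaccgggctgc
The Cybb window held the motif once, as TTCCTC from base 10 after the start site. The Cyba window and the Ncf1 window (chr5:134229576-134229875) held no match. Among 32851 windows of this length, 28.3% held GAGGAA on one strand or the other, and a match is a description of the letters alone.

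Cybb separated the classes more widely than any other subunit. It reached 11.3 CPM (10.1 to 12.6) in the microglia of Disc1 WT/WT and 24.2 CPM (21.0 to 27.9) in those of Disc1 LI/LI. Granule-low neutrophils held 291 CPM (227 to 367) and 305 CPM (292 to 318), and granule-high neutrophils held 1620 CPM (1502 to 1746) and 1240 CPM (1222 to 1259). Monocyte-like cells stood at 1250 and 926 CPM and border-macrophage-like cells at 457 and 473 CPM, again with Disc1 WT/WT first. Microglia therefore lay lowest of these classes in both libraries, with no overlap of intervals, and the granule-high neutrophils lay highest. The monocyte-like cells came next, and their intervals (1148 to 1358 and 908 to 944 CPM) did not reach those of the granule-high neutrophils.

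Of the Disc1 WT/WT microglia, 156 of 6180 held a UMI of Cybb, which is 2.52% (2.15 to 2.95%, exact binomial), and of the Disc1 LI/LI microglia 117 of 1950 did, which is 6.00% (4.99 to 7.15%). T- or NK-like cells, lymphocytes in which the gene is not a known feature, gave 9.68% (3.63 to 19.9%, 6 of 62 cells) and 11.5% (6.60 to 18.3%, 15 of 130 cells). Their median depths were similar, at 4101 and 3841 UMIs, and their Cybb levels were 32.1 and 52.0 CPM. The microglial share was thus below that of T- or NK-like cells by value, though the intervals overlapped in Disc1 LI/LI. This share is read neither as expression nor as its absence, and the source of the Cybb UMIs in either class was not tested. With every cell brought to 1000 UMIs, the shares were 0.717% and 1.72% in microglia and 2.92% and 3.00% in T- or NK-like cells. At the same depth Cybb was found in 23.5% and 20.9% of granule-low neutrophils, 76.0% and 66.4% of granule-high neutrophils and 69.0% and 60.7% of monocyte-like cells.

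Cyba, the partner of Cybb in the membrane, varied far less across the same classes. Microglia held 1233 CPM (1220 to 1245) and 1460 CPM (1434 to 1486), granule-low neutrophils 1271 CPM (1133 to 1422) and 1263 CPM (1237 to 1290), and granule-high neutrophils 1892 CPM (1764 to 2028) and 1822 CPM (1800 to 1844). The Disc1 WT/WT intervals of microglia and granule-low neutrophils overlapped. Cyba had a UMI in 97.1% and 97.8% of microglia as deposited and in 69.8% and 75.8% at 1000 UMIs per cell. T- or NK-like cells, at 853 and 796 CPM, were the lowest of these classes, and the 3 and 10 erythroid-like cells held 157 and 52.2 CPM. A UMI for p22phox was thus found in nearly every microglial cell of both genotypes, and one for gp91phox in few.

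Set against Cyba in the same cells, the contrast does not depend on a library total. For every 100 Cyba UMIs, Cybb had 0.917 (0.820 to 1.02) in Disc1 WT/WT microglia and 1.66 (1.43 to 1.91) in Disc1 LI/LI microglia. Granule-low neutrophils had 22.9 (17.4 to 29.7) and 24.1 (23.0 to 25.3), and granule-high neutrophils 85.6 (77.2 to 94.9) and 68.1 (66.8 to 69.4). Monocyte-like cells had 65.6 and 46.4, border-macrophage-like cells 36.9 and 27.7, and T- or NK-like cells 3.77 and 6.54.

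**Figure D1:**
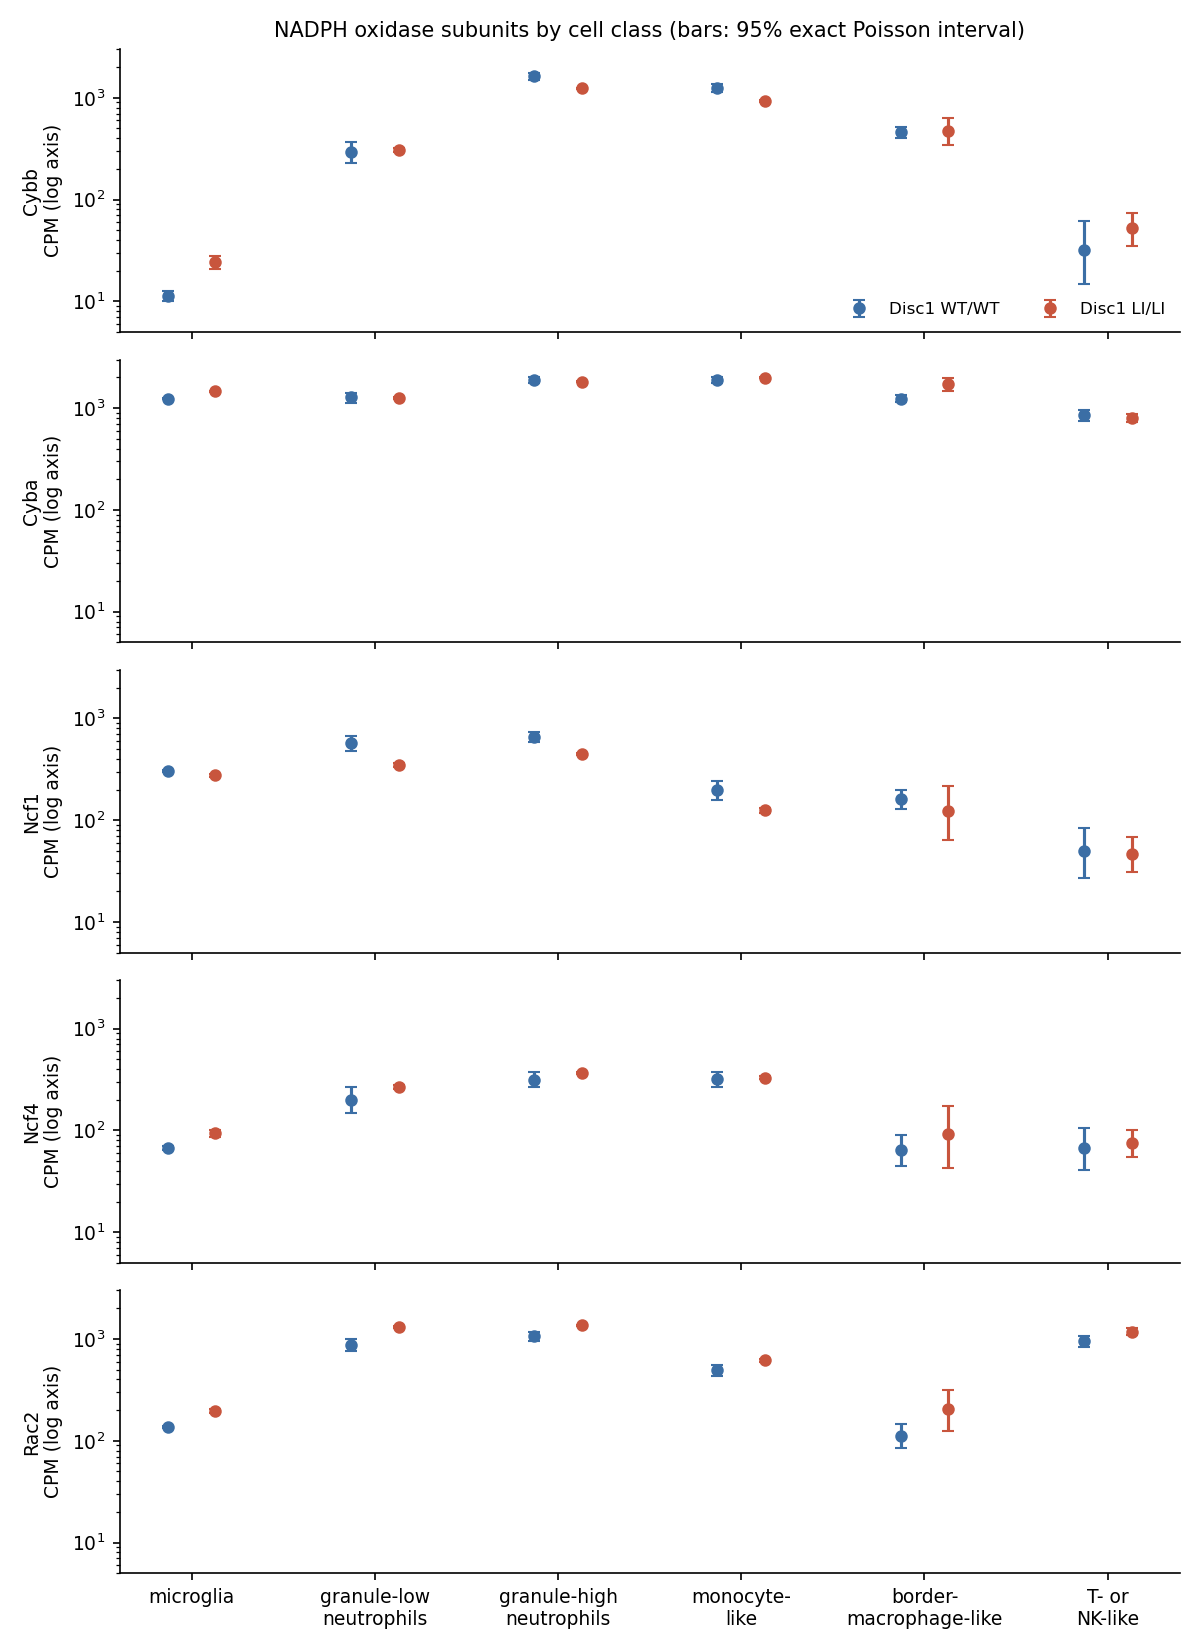
Level of each subunit in CPM (log axis) in 6 cell classes of the Disc1 WT/WT library (blue) and the Disc1 LI/LI library (red), with 95% exact Poisson intervals. Cybb runs from 11.3 and 24.2 CPM in microglia to 1620 and 1240 CPM in granule-high neutrophils, whereas Cyba stays between 796 and 1997 CPM in all 6 classes.

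Ncf1, the organizer p47phox, was the cytosolic subunit with the highest level in microglia relative to neutrophils. Microglia held 306 CPM (299 to 312) and 275 CPM (264 to 287), granule-low neutrophils 573 CPM (482 to 677) and 348 CPM (334 to 362), and granule-high neutrophils 654 CPM (580 to 736) and 445 CPM (434 to 456). Monocyte-like cells lay lower than microglia, at 197 CPM (158 to 243) and 125 CPM (118 to 132), in contrast to each of the other 4 subunits. Border-macrophage-like cells also lay lower for Ncf1, at 161 CPM (128 to 200) and 124 CPM (63.8 to 216). Ncf1 was found in 68.6% and 63.8% of microglia as deposited, and in 25.3% and 23.9% at 1000 UMIs, where monocyte-like cells gave 16.1% and 11.9% and T- or NK-like cells 2.94% and 3.20%.

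Ncf4, which encodes p40phox, was higher in neutrophils and monocyte-like cells than in microglia. Microglia held 67.5 CPM (64.6 to 70.6) and 93.4 CPM (86.9 to 100.2), granule-low neutrophils 199 CPM (147 to 264) and 266 CPM (254 to 279), and granule-high neutrophils 317 CPM (265 to 375) and 369 CPM (359 to 379). Monocyte-like cells held 317 CPM (267 to 374), beside the granule-high neutrophils of Disc1 WT/WT. In Disc1 LI/LI they held 330 CPM (319 to 340), below the interval of the granule-high neutrophils. Border-macrophage-like cells held 64.7 CPM (44.5 to 90.9) and 92.6 CPM (42.4 to 176), beside microglia. T- or NK-like cells held 67.8 and 75.6 CPM, and their intervals overlapped those of microglia in both libraries. At 1000 UMIs, the share of cells with a UMI was 6.52% and 8.70% in microglia against 6.09% and 7.18% in T- or NK-like cells.

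Rac2, the Rac GTPase of blood cells, was low in microglia and high in neutrophils and lymphocytes. Microglia held 136 CPM (132 to 140) and 198 CPM (188 to 207), granule-low neutrophils 872 CPM (758 to 999) and 1307 CPM (1280 to 1334), and granule-high neutrophils 1060 CPM (964 to 1162) and 1362 CPM (1343 to 1381). T- or NK-like cells reached 953 CPM (842 to 1074) in Disc1 WT/WT, between the values of the 2 neutrophil classes. In the Disc1 LI/LI library they reached 1182 CPM (1096 to 1273), below both neutrophil classes. Monocyte-like cells held 491 and 615 CPM. Border-macrophage-like cells held 112 CPM (84.6 to 145) and 206 CPM (126 to 318), and these intervals overlapped those of microglia in both libraries. Rac1, a relative of Rac2 that can take the same place in the complex, had 443 and 408 CPM in microglia. It had 341 and 307 CPM in granule-low neutrophils and 274 and 201 CPM in granule-high neutrophils. Its direction between microglia and granule-low neutrophils depended on the scaling, as given with the gene lists below.

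**Figure D2:**
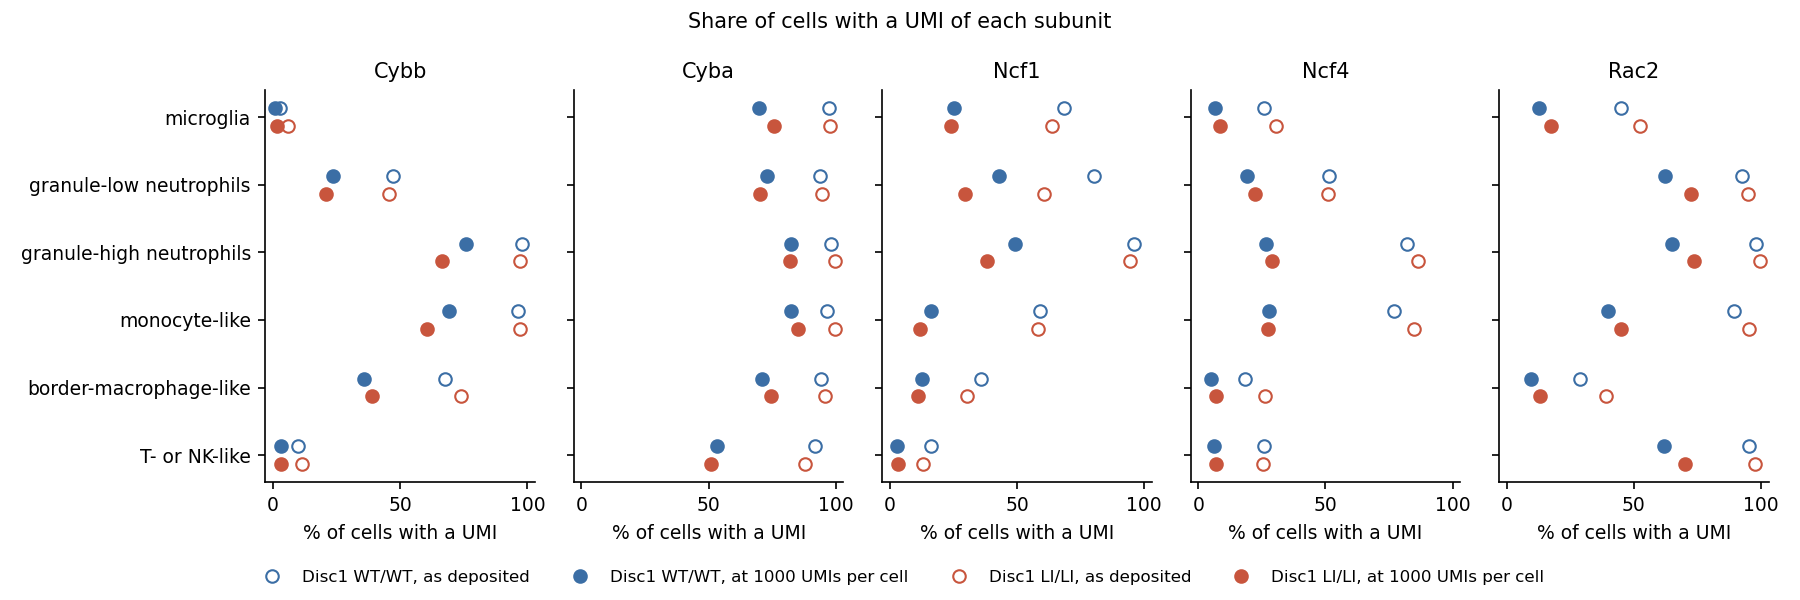
Share of cells with at least 1 UMI of each subunit in 6 cell classes, as deposited (open) and with each cell brought to 1000 UMIs (filled), in Disc1 WT/WT (blue) and Disc1 LI/LI (red). For Cybb, microglia give 0.717% and 1.72% at 1000 UMIs, at or below T- or NK-like cells, and for Cyba 69.8% and 75.8%.

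Read cell by cell as deposited, the full set was rare in microglia and usual in granule-high neutrophils. All 5 subunits had a UMI in 0.485% and 1.38% of microglia, 22.7% and 17.9% of granule-low neutrophils, 78% and 80.8% of granule-high neutrophils, and 48.2% and 48.9% of monocyte-like cells, as deposited. The other 4 subunits without Cybb were found together in 9.90% and 10.7% of microglia. These shares move with depth. At 1000 UMIs per cell the full set was found in only 4% and 4.84% of granule-high neutrophils. It was found in 0 of 6076 and 0 of 1933 microglia at that depth, where no full order of the classes is read.

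The few microglia with 2 or more Cybb UMIs differed from the rest in the genes of other cells. In Disc1 WT/WT, the 62 microglia with 2 or more Cybb UMIs had a median of 8694 UMIs, 1585 CPM of border-macrophage markers and 677 CPM of monocyte markers, against 4248 UMIs, 59.2 CPM and 20.9 CPM in the 6024 microglia without Cybb. In Disc1 LI/LI, the 24 such microglia had a median of 8980 UMIs, 583 CPM of border-macrophage markers and 2927 CPM of monocyte markers, against 3755 UMIs, 25.4 CPM and 169 CPM in 1833 cells. The 6 microglia genes made up a median 0.767% and 0.670% of UMIs in these cells against 1.18% and 1.09% in microglia without Cybb. Microglia with a single Cybb UMI were more numerous. The 94 such cells of Disc1 WT/WT had 1446 CPM of border-macrophage markers and a median 0.904% from the microglia genes, whereas the 93 of Disc1 LI/LI, with 62.2 CPM, 227 CPM of monocyte markers and 1.06%, lay close to those without Cybb. The highest Cybb counts thus sat in cells near the lower limit of the microglia rule, at a higher depth, and whether they were doublets was not tested. A choice of cells by their number of Cybb UMIs in itself favours deeper cells.

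The same microglia were also split along the microglia rule, which is a second view of the same UMIs and no separate support. Microglia with 0.5 to 1% of UMIs from the 6 genes held 32.3 CPM (1852 cells) and 41.2 CPM (768 cells) of Cybb, and those with 1 to 2% held 2.50 CPM (4233 cells) and 12.4 CPM (1166 cells). The other subunits differed less between these ranges. Rac2 went from 150 to 130 CPM and from 221 to 180 CPM, Cyba from 1296 to 1209 CPM and from 1478 to 1447 CPM, and Ncf4 from 67.7 to 67.7 CPM and from 97.8 to 90.2 CPM. Ncf1 ran the other way, from 278 to 318 CPM and from 256 to 287 CPM. Of all microglia, 181 and 88 cells lay between 0.5 and 0.6%, while 112 and 76 further cells lay just outside, between 0.4 and 0.5%. Among 19 and 9 microglia with interferon-response transcripts, Cybb stood at 96.3 CPM (44.0 to 183) and 63.6 CPM (7.70 to 230), from 9 and 2 UMIs.

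RNA freed from other cells was estimated from neutrophil markers. The estimate takes their UMIs in microglia as free RNA, and whether they came from free RNA, doublets or the microglia was not tested. Retnlg, a neutrophil gene, had 4.19 CPM in Disc1 WT/WT microglia and 170 CPM in Disc1 LI/LI microglia, while Csf3r had 143 and 123 CPM. With Csf3r counted, the neutrophil markers in microglia amounted to 0.436% and 1.14% of their sum in neutrophils. Without Csf3r, which the microglia held at a similar level in both libraries, they amounted to 0.0256% and 0.849%. The same share of the neutrophil Cybb level is 0.292 and 7.93 CPM. Against the marker sum in all cells that are not microglia, the share was 0.159% and 1.54%. That share of their Cybb level is 0.885 and 12.3 CPM, to be set beside the 11.3 and 24.2 CPM measured. For Ncf1, Ncf4 and Rac2 the estimate for all cells that are not microglia was 4.26, 4.66 and 15.6 CPM in Disc1 LI/LI, beside microglial levels of 275, 93.4 and 198 CPM.

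Next, the classes were compared as ratios within each library. Granule-low neutrophils exceeded microglia at least 2-fold for 3 of 5 subunits in both libraries, namely Cybb, Ncf4 and Rac2, where 15.8% of 3978 measured genes and 17.1% of 3567 measured genes, Disc1 WT/WT first, did so. Genes counted here had at least 50 CPM in one of the classes and 10 UMIs in both together. The log2 ratio of Cybb was 4.69 (4.29 to 5.06) within Disc1 WT/WT and 3.65 (3.44 to 3.87) within Disc1 LI/LI. That of Rac2 was 2.68 and 2.73, that of Ncf4 1.56 and 1.51, and that of Ncf1 0.91 and 0.34, which TMM scaling took past 2-fold, to 1.54 and 1.44. Cyba had log2 ratios of 0.04 (-0.12 to 0.21), which turned to -0.04 in cells thinned to 1000 UMIs, and -0.21 (-0.25 to -0.17), which turned to 0.89 with TMM scaling, a method that sets the bulk of genes equal and that moved every ratio of this comparison up by 0.63 within Disc1 WT/WT and 1.10 within Disc1 LI/LI. With microglia restricted to cells with at least 1% of UMIs from the 6 genes and under 0.2% from S100a8 and S100a9, the Cybb ratio was 6.86 and 4.64. The median over the 5 subunits was 1.56 and 1.51, beside -0.79 and -0.98 over all measured genes.

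Within neutrophils, Cybb alone of the 5 was at least 2-fold higher in granule-high than in granule-low cells, with log2 ratios of 2.48 (2.12 to 2.85) and 2.03 (1.96 to 2.09), Disc1 WT/WT first. Of all genes, 7.84% and 5.02% were at least 2-fold higher. None of the 5 was 2-fold lower, where 21.0% and 21.3% of genes were. The other ratios were 0.57 and 0.53 for Cyba, 0.67 and 0.47 for Ncf4, 0.19 and 0.36 for Ncf1, and 0.28 and 0.06 for Rac2, of which the first Rac2 value turned to -0.18 with cells thinned to 1000 UMIs. Under TMM scaling, which added 0.33 to each, Ncf4 also passed 2-fold in Disc1 WT/WT, at 1.00. The median over the 5 was 0.57 and 0.47, beside -0.37 and -0.36 over all measured genes.

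In finer ranges of the granule genes, Cybb was higher from range to range up to 15%. Over cells with less than 0.1%, 0.1 to 1%, 1 to 5%, 5 to 15% and 15% or more of UMIs from Ngp, Camp and Ltf, it held 232, 384, 755, 1416 and 1313 CPM in Disc1 LI/LI, in 1206, 785, 572, 1017 and 42 cells. The first 4 ranges of Disc1 WT/WT gave 196, 474, 969 and 1837 CPM, in 47, 19, 14 and 35 cells. Rac2 lay between 1260 and 1374 CPM over the same ranges of Disc1 LI/LI, and at 909, 802, 1016 and 1055 CPM over the first 4 of Disc1 WT/WT. Ncf4 went from 244 to 423 CPM in the Disc1 LI/LI library. Near the cut, 194 neutrophils of Disc1 LI/LI lay between 0.5 and 1% and 218 between 1 and 2%.

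**Figure D3:**
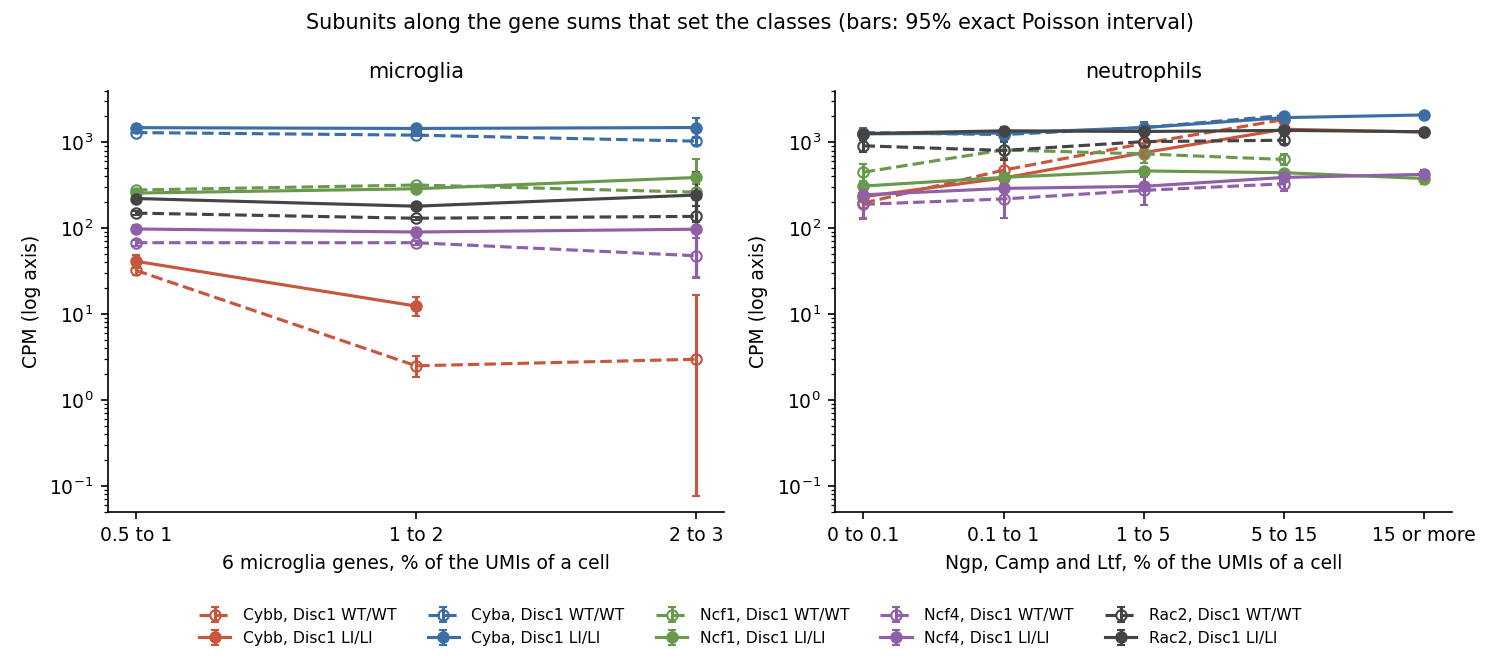
CPM of each subunit (log axis) over ranges of the gene sums that set the classes, in microglia (left) and neutrophils (right), for Disc1 WT/WT (dashed, open) and Disc1 LI/LI (solid, filled) with 95% exact Poisson intervals; points with fewer than 5 cells or with 0 UMIs are left out. Cybb is lower in microglia with more of the 6 microglia genes and higher in neutrophils with more granule genes, and the other subunits change less.

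Between genotypes, the subunits in microglia differed by less than 1.5-fold by totals where their level allowed a comparison. With TMM scaling, Ncf4 and Rac2 passed that limit. By totals, none of the 4 subunits at 50 CPM or more passed it in either direction. Of 3556 genes, 1.27% were at least 1.5-fold higher and 13.1% at least 1.5-fold lower in Disc1 LI/LI. With 4 genes and these shares, the count is not read as a trait of the subunits. The log2 ratios of Disc1 LI/LI over Disc1 WT/WT were 0.24 (0.21 to 0.27) for Cyba, -0.15 (-0.22 to -0.09) for Ncf1, 0.47 (0.35 to 0.59) for Ncf4 and 0.54 (0.45 to 0.62) for Rac2. TMM scaling added 0.13 to each, which took Ncf4 to 0.60 and Rac2 to 0.67, past 1.5-fold, and Ncf1 to -0.02. Cybb, which was under 50 CPM in microglia of both libraries, had a log2 ratio of 1.10 (0.84 to 1.36). With the neutrophil share of free RNA estimated from all markers and taken off, Cybb stood at 6.32 and 13.6 CPM, Disc1 WT/WT first. Without Csf3r among the markers, a choice made after seeing the data, it stood at 11.0 and 16.3 CPM. The log2 ratio of Cybb was then 0.57. With the estimated share of all other cells taken off it was 0.20, and in microglia of the stricter rule it was 2.28. The median over the 5 subunits, with Cybb counted, was 0.47, beside -0.12 over all measured genes.

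In granule-low neutrophils, Ncf1 alone passed 1.5-fold by totals, with a log2 ratio of -0.72 (-0.97 to -0.46). Of 2637 genes, 9.56% were higher and 37.1% lower past that limit. With TMM scaling the Ncf1 ratio was -0.15, and with neutrophils set at 5% of UMIs from S100a8 and S100a9 and split at 2% it was -0.58, just inside the limit. Rac2 stood at 0.58 (0.39 to 0.79), just under 1.5-fold, and Ncf4 at 0.42 (0.00 to 0.86). Cybb stood at 0.07 (-0.28 to 0.43), which turned to -0.40 in cells thinned to 1000 UMIs. TMM scaling added 0.57 to each ratio, which took Rac2, Ncf4 and Cybb past 1.5-fold, all higher in Disc1 LI/LI. Cyba stood at -0.01 (-0.17 to 0.16), which TMM scaling turned to 0.57. The median over the 5 was 0.07, beside -0.36 over all measured genes, and the Disc1 WT/WT side rests on 66 cells.

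In granule-high neutrophils no subunit passed 1.5-fold by totals, where 6.42% of 2274 genes were higher and 35.0% lower. Ncf1 was again the lowest, at -0.56 (-0.73 to -0.38), and it moved to 0.00 with TMM scaling, which shifted this comparison by 0.56. Cybb stood at -0.39 (-0.50 to -0.27) and turned to 0.17 with TMM scaling. Rac2 stood at 0.36 (0.23 to 0.50) and Ncf4 at 0.22 (-0.02 to 0.48), which turned to -0.43 in thinned cells. The TMM shift of 0.56 took both Rac2 and Ncf4 past 1.5-fold, higher in Disc1 LI/LI. Cyba stood at -0.05 (-0.16 to 0.05), which turned to 0.51 with TMM scaling and to 0.07 in thinned cells. The median over the 5 was -0.05, beside -0.34 over all measured genes, and the Disc1 WT/WT side has 50 cells.

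Among other cells, Ncf4 and Rac2 were at least 1.5-fold higher in Disc1 LI/LI by totals. Their log2 ratios were 1.19 (1.04 to 1.34) and 1.05 (0.96 to 1.14), where 17.6% of 3256 genes were higher and 27.9% lower. Cybb stood at 0.51, Cyba at 0.38 and Ncf1 at -0.29, and the median over the 5 was 0.51 beside -0.02. TMM scaling added 0.48 to each ratio, which turned Ncf1 to 0.19 and took Cybb and Cyba past 1.5-fold as well. Monocyte-like cells were 56 of 736 other cells in Disc1 WT/WT and 1351 of 2245 in the Disc1 LI/LI library. Within monocyte-like cells, the ratio of Ncf4 was 0.06 (-0.19 to 0.31) and that of Rac2 0.32 (0.13 to 0.53), while Cybb stood at -0.43 (-0.56 to -0.31) and Ncf1 at -0.66 (-0.97 to -0.33).

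**Figure D4:**
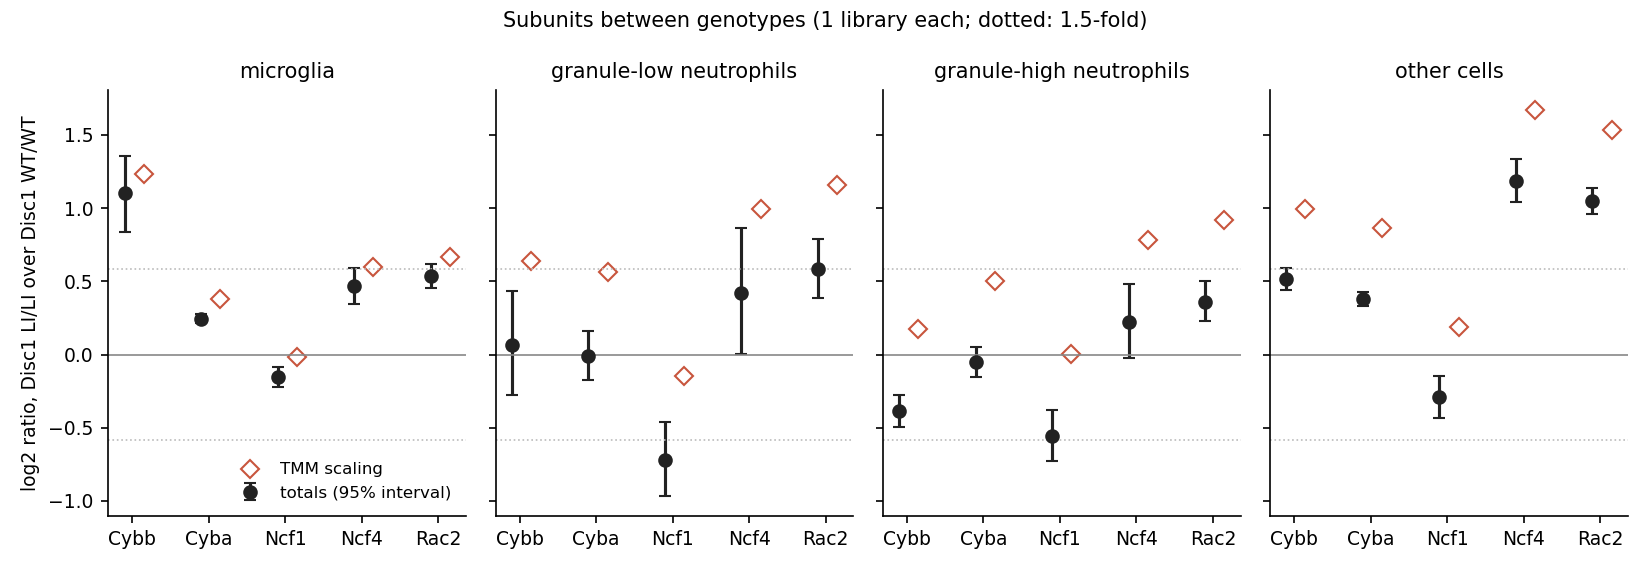
Log2 ratio of Disc1 LI/LI over Disc1 WT/WT for each subunit in 4 cell classes, scaled by totals with 95% Clopper-Pearson intervals (black) and by TMM (open red); dotted lines mark 1.5-fold. By totals, Ncf1 passes the lower line in granule-low neutrophils at -0.72, and Ncf4 and Rac2 pass the upper line in other cells at 1.19 and 1.05.

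Genes that work beside the oxidase were read from 4 lists. Their counts stand beside 15.8% and 17.1% of all measured genes at least 2-fold higher in granule-low neutrophils than in microglia and 42.1% and 49.2% at least 2-fold lower, Disc1 WT/WT first. In the family list, 1 of 5 measured genes was at least 2-fold higher and 2 were lower in each library. The 2 lower ones were Hvcn1, the proton channel that balances the charge moved by the oxidase, with log2 ratios of -2.62 (-4.89 to -1.07, from 3 UMIs in the neutrophils) and -2.27, and Cybc1, a chaperone needed to make gp91phox, with log2 ratios of -1.02 and -1.65. Under TMM scaling the ratios of Cybc1 were -0.38 and -0.55, inside 2-fold in both libraries, and those of Hvcn1 -1.98 and -1.17. Granule-high neutrophils held 53.9 and 40.2 CPM of Hvcn1, nearer to the 76.4 and 76.5 CPM of microglia than the 12.5 and 15.9 CPM of granule-low neutrophils. Cybc1 had 37.5 and 41.7 CPM in granule-high neutrophils, against 126 and 157 CPM in microglia. No UMI was found in any class for Nox3, Nox4, Noxa1, Duox1, Duox2 and Duoxa2, and Nox1, Noxo1 and Duoxa1 stayed under 5 CPM.

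Of 12 genes that act on the switching of the oxidase, for or against it, 10 were measured. In each library 2 of them, Arhgdib and Vav3, were at least 2-fold higher in granule-low neutrophils. At least 2-fold lower were 2 genes with the wild type and 3 with the impaired locus. The list median was 0.14 and -0.23, beside -0.79 and -0.98 over all measured genes. The count of higher genes is not one of genes that switch the oxidase on, since it takes in Arhgdib. Arhgdib, which holds Rac in the cytosol, was higher, from 403 and 511 CPM in microglia to 1171 and 1467 CPM, and it reached 2725 and 2786 CPM in granule-high neutrophils. Vav3, an exchange factor for Rac, had 1.19 and 2.45 CPM in microglia and 54.0 and 61.5 CPM in granule-low neutrophils. Its relative Vav1 ran the other way, with 117 and 105 CPM in microglia and 58.2 and 41.9 CPM in granule-low neutrophils, and TMM scaling put its log2 ratios at -0.37 and -0.22, inside 2-fold.

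In the NADPH supply list, 3 of 5 measured genes were at least 2-fold higher in granule-low neutrophils in each library, and 2 and 1 were lower. The list median was 1.98 and 2.14. The list takes in genes of the pentose phosphate pathway whether or not their enzyme itself makes NADPH. Taldo1, the transaldolase of the pentose phosphate pathway, had 257 and 306 CPM in microglia and 1678 and 1780 CPM in granule-low neutrophils, and Tkt and Pgd of the same pathway had log2 ratios of 1.98 and 2.33 and of 2.41 and 2.14. Idh2, a mitochondrial source of NADPH, was lower, with log2 ratios of -3.49 (-5.77 to -1.94, from 3 UMIs) and -2.37.

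Among genes that handle oxidants, 5 of 12 measured in Disc1 WT/WT and 7 of 14 in the Disc1 LI/LI library were at least 2-fold higher in granule-low neutrophils, 3 and 4 were lower, and the list median was 0.53 and 1.08. Gsr, which regenerates glutathione with NADPH, had 24.6 and 31.8 CPM in microglia and 1300 and 1006 CPM in granule-low neutrophils, and Txn1 (thioredoxin) had 64.1 and 97.5 CPM against 1766 and 2067 CPM. The peroxiredoxins parted: Prdx5 and Prdx6 were higher in granule-low neutrophils, with log2 ratios of 2.43 and 2.53 and of 2.58 and 2.40, whereas Prdx1, Prdx2 and Prdx3 lay between -1.57 and -1.96. With TMM scaling these 3 stood at -0.93, -1.28 and -1.32 in Disc1 WT/WT and, all inside 2-fold, at -0.68, -0.69 and -0.75 in the Disc1 LI/LI library. Mpo, the myeloperoxidase that uses hydrogen peroxide made downstream of the oxidase, had no UMI in granule-low neutrophils of Disc1 WT/WT and 894 CPM in those of Disc1 LI/LI, where 3.77% of cells held one. Over the 4 lists, TMM scaling changed the sign of 5 of 32 ratios in Disc1 WT/WT and 8 of 34 in the Disc1 LI/LI library, all of them ratios below 0 with totals, and Rac1 and Rap1a were among them in both libraries. The log2 ratio of Rac1 went from -0.38 to 0.25 in Disc1 WT/WT and from -0.41 to 0.69 in Disc1 LI/LI.

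The likeness of patterns was described over the 8 sums of 4 classes and 2 libraries, as Pearson r of log2(CPM + 1), among 4574 genes. Nearest to Cybb were Plbd1 (0.989), Fam241a (0.982) and Sp100 (0.978). Nearest to Rac2 were Trem3 (0.989), Rab3d (0.987) and Prdx5 (0.986), and to Ncf4 Cldn15 (0.988), Prdx5 (0.983) and Ccnd3 (0.982). Ncf1 lay nearest to Lasp1 (0.964), Ccdc88b (0.962) and Sun2 (0.954), and among the nearest to Cyba were Nfu1 (0.947) and Agtrap (0.926). Between subunits, r was highest for Ncf4 with Rac2 (0.963) and for Cybb with Ncf4 (0.891), and lowest for Cybb with Ncf1 (0.127). The 4 sums of a library share its depth and its free RNA, so these values describe the pattern only.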

How the data were processed

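Droplet libraries of sorted brain cells were analysed, 1 per genotype, each from 6 pooled mice. Raw UMI counts of each gene in each barcode, not normalized, were deposited by the authors, and the file headers name Cell Ranger 6.1.2, and the submitters' processing notes name mm10, STAR and Seurat 3.0.1. Which of the chips and kit versions listed in the protocol was used for each library is not given in the sources used here. The members and gene lists were chosen with earlier results of these data known.

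Barcodes under 200 genes or over 10% mitochondrial UMIs were left out, 6 of 7038 in Disc1 WT/WT (33601957 UMIs in all) and 17 of 7834 in Disc1 LI/LI (47731571 UMIs). Counts were summed over the cells of a class and given per 1000000 UMIs (CPM), with exact Poisson intervals; shares of cells have exact binomial (Clopper-Pearson) intervals and ratios of sums Clopper-Pearson intervals. The share at 1000 UMIs is the exact expectation of drawing 1000 UMIs of each cell, shallower cells left out. Ratios count genes with at least 50 CPM in one group and at least 10 UMIs in both together. Named are the 5 members, genes of the 4 lists and the 3 genes most like each member, of which some are not reported here; Gtf2ird2, Retnlg, Csf3r, Elane and Disc1 were named after their values were seen, and so were the finer ranges of the gene sums and the count of members higher in granule-high neutrophils. Doublets were not removed, and leaving out the 5% of cells with the most UMIs was an alternative. Ratios were tested on simulated data. Promoters came from RefSeq and gene positions from the GENCODE annotation of mm10. TMM scaling used edgeR 4.0.16 in R 4.3.3, and all else scipy 1.17.1, numpy 2.4.6, pandas 2.3.3 and matplotlib 3.10.9 in Python 3.11.15.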

Additional observations from a re-analysis of the deposited data

Results flagged for a closer look

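By totals, Cybb differed in direction between classes when the genotypes were compared. Its log2 ratio of Disc1 LI/LI over Disc1 WT/WT was 1.10 in microglia and -0.39 in granule-high neutrophils, a difference of 1.49 on the log2 scale. The difference was not tested, since each genotype has 1 library. The microglial level was 11.3 and 24.2 CPM, under the minimum of 50 CPM. TMM scaling left the microglial ratio positive and turned the granule-high value to 0.17, so the directions no longer differed. With free RNA estimated without Csf3r and taken off, the microglial ratio was lower, as given above.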

How the results depend on the processing

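The count of subunits at least 2-fold higher in granule-low neutrophils than in microglia was 3 in each library by totals. It was 4, with Ncf1 added, under TMM scaling in both libraries and in Disc1 WT/WT also when CPM was averaged with equal weight per cell, and 3 under the other alternatives run. The other counts moved as follows. With TMM scaling, 2 subunits were 2-fold higher in granule-high than in granule-low neutrophils in Disc1 WT/WT. The genotypes then differed past 1.5-fold for 3 subunits in microglia (1 by totals, Cybb, counted here without the 50 CPM minimum). In granule-low neutrophils they did so for 3, Cybb, Ncf4 and Rac2 (1 by totals, Ncf1). The count was 2 in granule-high neutrophils, Ncf4 and Rac2 (0 by totals). It was 4 in other cells, all but Ncf1 (2 by totals, Ncf4 and Rac2). The genotype count in granule-low neutrophils was 2 with the filter of 500 genes and 5% mitochondrial UMIs and 0 with the neutrophil rule of 5% and 2%. In granule-high neutrophils it was 1 with that rule, 1 without the 5% of cells with the most UMIs and 1 in cells thinned to 1000 UMIs. In other cells it was 4 with the stricter microglia rule. In microglia it was 0 with the estimated free RNA subtracted without Csf3r, for neutrophils as for all other cells. Both of these settings were chosen after seeing the data. At 2000 UMIs per cell, the Cybb share was 1.22% of the Disc1 WT/WT microglia against 3.25% of the Disc1 LI/LI microglia, and at 1000 UMIs it was 0.233% of Disc1 WT/WT microglia of the stricter rule. The cause of these moves was not tested.

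With a minimum of 10 CPM in place of 50, 11.2% and 12.5% of 8571 and 8215 genes were 2-fold higher in granule-low neutrophils than in microglia, and with no CPM minimum 9.99% and 13.8% of 12858 and 12177. In numbers of genes, these were 958 and 1029 at 10 CPM and 1284 and 1675 with none, beside 628 and 609 at 50 CPM, and 4277 and 4629 were 2-fold lower at 10 CPM and 7598 and 7018 with none, beside 1673 and 1756. For the genotypes in microglia, 128 genes (1.57%) were higher and 1322 (16.3%) lower at 10 CPM and 853 (6.49%) and 2687 (20.5%) with none, beside 45 and 466 at 50 CPM. In granule-low neutrophils 835 and 2916 were so at 10 CPM (252 and 978 at 50 CPM), in granule-high neutrophils 579 and 2622 (146 and 797), and in other cells 1095 and 2965 (573 and 910). At least 2-fold higher in granule-high than in granule-low neutrophils were 556 and 320 genes at 10 CPM (218 and 108). No paired analysis was possible because each genotype has 1 library. The single library per genotype, few neutrophils in Disc1 WT/WT, doublets left in and a sort that held many cells other than microglia limit every comparison of genotypes.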
